A study of Rattus norvegicus with 20 samples.

Results

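A set of 9 genes of the neurotrophin and GDNF-family signalling systems was followed across 2 brain regions and 2 diets. They are the ligands Bdnf, Ntf3 and Artn, the receptors Ntrk2, Ntrk3, Ngfr and Ret, and the co-receptors Gfra1 and Gfra2. They were chosen by symbol, and each gene was represented by the RefSeq accession with the highest mean count, which gave 9 of 18288 accessions. These genes have 25 accessions in all. The deposited tables of the diet comparisons hold 8 of the 9 genes; Gfra1 was found in the library files through its RefSeq accession.

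Male Fischer344/Jcl rats, an inbred strain, ate either standard AIN-93G or a low-iron diet from day 21 to day 39 of life, and the prefrontal cortex and nucleus accumbens were sampled at 13 weeks. The 4 groups were cortex and accumbens after the standard diet and cortex and accumbens after the low-iron diet, with 5 libraries each and 20 in all. The labels give no transgene, injection or surgery for any group. Nothing in them ties a library to an animal, so each p-value here reflects spread among libraries that could be partly technical.

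Neurotrophins are secreted growth factors that act through the Trk receptor tyrosine kinases and through the shared receptor p75, and they shape neuronal survival, dendrites and synapses. Ligands of the GDNF family bind a GFRα co-receptor anchored in the membrane, and the pair then activates the receptor tyrosine kinase RET. In the adult forebrain, BDNF made by cortical neurons is carried along axons to the striatum, where TrkB is expressed by local neurons, and GDNF-family signalling is known for its effects on dopamine and cholinergic neurons.

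The libraries held 4.34 to 12.97 M assigned reads. Accumbens libraries were shallower, at 7.19 ± 1.35 M after the standard diet and 5.13 ± 0.696 M after the low-iron diet, against 10.3 ± 2.004 and 9.36 ± 2.59 M in cortex (SD, n = 5). Levels are given as counts per M assigned reads after TMM scaling (CPM), which are not corrected for transcript length, so levels are compared between samples and not between genes. The summed level of 12 cortical glutamatergic neuron markers was 2025 to 3818 CPM in cortex libraries and 214 to 665 CPM in accumbens libraries, and that of 12 striatal projection neuron markers was 484 to 532 and 4134 to 7307 CPM. Standard-diet cortex replicate 4 stood apart, with 1253 CPM of meningeal and fibroblast markers where the other cortex libraries had 71.0 to 292 CPM. Standard-diet accumbens replicate 4 held 665 CPM of the cortical markers where the other accumbens libraries had 214 to 299 CPM. In bulk tissue, fewer cells of a type and less RNA per cell cannot be told apart.

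RefSeq promoter windows of assembly GRCr8, from 250 bases before to 50 bases after a start site, were found for 5 of the 9 genes. There were 12 windows, 6 of them for Bdnf and 3 for Ntf3. The windows below belong to 4 members whose levels are described in the next paragraphs: the Bdnf window is the only 1 of its 6 that holds the core of a cAMP response element, and the others are the sole windows of Ret, Gfra1 and Artn. Capitals mark matches to TGACGT or its reverse complement ACGTCA, the cAMP response element core, and to GGGCGG or its reverse complement CCGCCC, the GC box. Both strands were searched, and the GC boxes in the Artn window, which begin 162 and 157 bases before the start, overlap in 1 base.
Bdnf (GRCr8 chr3:116637608-116637907, plus strand): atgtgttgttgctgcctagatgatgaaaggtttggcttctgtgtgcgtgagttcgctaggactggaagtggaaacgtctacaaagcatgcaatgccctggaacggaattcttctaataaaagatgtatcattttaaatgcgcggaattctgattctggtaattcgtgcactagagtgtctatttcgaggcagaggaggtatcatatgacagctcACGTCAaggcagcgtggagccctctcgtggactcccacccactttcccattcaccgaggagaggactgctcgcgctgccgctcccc
Ret (GRCr8 chr4:153040507-153040806, minus strand): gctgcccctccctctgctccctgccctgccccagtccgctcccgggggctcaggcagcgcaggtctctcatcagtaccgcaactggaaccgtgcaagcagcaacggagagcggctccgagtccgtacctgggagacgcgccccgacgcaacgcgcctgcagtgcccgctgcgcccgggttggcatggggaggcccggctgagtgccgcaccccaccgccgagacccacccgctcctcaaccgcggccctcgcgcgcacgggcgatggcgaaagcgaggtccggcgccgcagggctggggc
Gfra1 (GRCr8 chr1:267555762-267556061, minus strand): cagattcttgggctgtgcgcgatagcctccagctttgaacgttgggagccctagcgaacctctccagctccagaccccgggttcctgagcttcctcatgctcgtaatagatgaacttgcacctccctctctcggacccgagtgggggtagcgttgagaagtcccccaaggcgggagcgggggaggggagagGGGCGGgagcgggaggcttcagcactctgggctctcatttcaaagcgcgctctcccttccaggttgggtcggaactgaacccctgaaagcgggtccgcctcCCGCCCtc
Artn (GRCr8 chr5:136753408-136753707, minus strand): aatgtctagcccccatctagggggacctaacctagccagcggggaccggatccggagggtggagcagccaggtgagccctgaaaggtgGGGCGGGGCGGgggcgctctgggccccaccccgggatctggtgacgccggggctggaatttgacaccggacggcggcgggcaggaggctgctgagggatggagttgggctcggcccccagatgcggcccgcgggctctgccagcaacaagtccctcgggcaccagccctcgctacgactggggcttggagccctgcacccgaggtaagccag
The Bdnf match begins 36 bases before the annotated start. Of 33469 windows of the same length, 7.94% held the cAMP response element core and 33.1% held a GC box. The Ret window held neither. A match describes letters in a window and was not tested as a binding site.

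Bdnf encodes brain-derived neurotrophic factor, whose several promoters each splice a separate first exon to a shared coding exon. It was counted in cortex and hardly at all in accumbens. Reads fell on 8 of its 10 accessions on chromosome 3 of rn6. Of the 410 reads assigned to these accessions, NM_001270633 took 50.7%, NM_012513 took 26.8% and NM_001270630 took 19.3%. In cortex NM_001270633 was at 1.16, 2.64, 3.02, 2.12 and 1.53 CPM in the 5 standard-diet libraries, and at 2.47, 2.84, 2.36, 2.11 and 1.73 CPM in the 5 low-iron libraries. In accumbens it was at 0.11, 0, 0.14, 0 and 0 CPM after the standard diet and had 0 reads in all 5 low-iron libraries. Every cortex library lay above every accumbens library.

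Under the standard diet this accession had 106 reads in cortex and 2 in accumbens, a ratio of 39.8 per assigned read with a 95% counting interval of 10.8 to 333. After the low-iron diet it had 100 reads in cortex and 0 in accumbens. With the floor for the whole accumbens group taken as 3 reads, the ratio was 20.3, with a 95% counting interval of 6.73 to 99.9. With all 10 accessions summed, the reads were 195 against 5 under the standard diet, 29.3-fold (12.3 to 91.3), and 209 against 1 after the low-iron diet, 127-fold (22.5 to 5039). These intervals cover counting error only. Reads common to several accessions, as from the shared coding exon, are assigned to none, so these sums are not totals of Bdnf RNA. The main accession was just under the read filter of both region tests. With accessions summed per gene, edgeR's quasi-likelihood test gave a log2 difference between accumbens and cortex of -4.74 under the standard diet (adjusted p = 4.83e-06) and -6.44 after the low-iron diet (adjusted p = 1.65e-09). Summed Bdnf passed the read filter of both tests through its cortex reads alone, so these p-values add no independent support. The Bdnf difference between regions rests on the reads counted in each library.

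Between diets, Bdnf in cortex differed by less than its spread, at 2.09 ± 0.767 CPM (SD, n = 5) under the standard diet and 2.30 ± 0.414 CPM (SD, n = 5) after the low-iron diet. The log2 difference was 0.10 (95% interval -0.47 to 0.67, edgeR adjusted p = 0.921). The second accession, NM_012513, was at 0.18, 1.12, 0.42, 0.78 and 1.66 CPM under the standard diet and at 1.31, 1.27, 1.09, 2.68 and 1.18 CPM after the low-iron diet. Its log2 difference was 0.91 with an SE of 0.46 (edgeR unadjusted p = 0.0686, adjusted p = 0.683), and the groups overlapped. At 2 to 28 reads per cortex library, a change of the size seen in this accession could not be resolved.

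Ntf3, which encodes neurotrophin-3, had 0 reads on each of its 4 accessions in all 20 libraries. Ntrk3, which encodes its receptor TrkC, had 7 reads, all on 1 of its 3 accessions: 2 and 1 in cortex and 1 and 3 in accumbens, after the standard and low-iron diet in that order. A count of 0 allows up to 3 reads, or 0.240 to 0.658 CPM depending on the library, and covers counting error only. The files count each accession as a feature of its own, and reads shared by accessions of 1 gene are not assigned to any. Of the messenger accessions, 11.5% had 0 reads in all 20 libraries where the gene had 1 accession, 36.8% where it had 2 and 68.7% where it had 3 or more. Tac1 and Adora2a, markers of striatal projection neurons, and Aqp4, an astrocyte water channel, were likewise listed at 0 in all 20 libraries. So the values for Ntf3 and Ntrk3 say that they are listed at or near 0, and the part of shared reads in this was not tested. Neither gene passed the read filter of any test. Without the filter, the Ntrk3 differences had edgeR unadjusted p from 0.166 to 0.733, from at most 2 reads in a library.

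Artn encodes artemin, a GDNF-family ligand that binds GFRα3 and signals through RET. It was low in both regions and was highest in standard-diet cortex, at 1.96, 1.60, 2.29, 1.90 and 1.78 CPM. Low-iron cortex had 1.02, 1.17, 1.45, 1.05 and 1.09 CPM. All 5 low-iron cortex libraries lay below all 5 standard-diet ones. Accumbens had 0.65, 1.18, 0.85, 0.88 and 0.42 CPM after the standard diet and 1.06, 0.48, 0.65, 1.05 and 1.32 CPM after the low-iron diet, with the groups overlapping. These levels rest on 14 to 22 reads per library in standard-diet cortex, 7 to 12 in low-iron cortex and 3 to 10 in accumbens.

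In the cortex diet comparison the Artn log2 difference was -0.74 with an SE of 0.20, which is 0.597-fold (95% interval 0.441 to 0.807). The edgeR p was 0.00275 before adjustment and 0.683 after adjustment over 11662 accessions, so it did not pass. The authors' deposited table gives -0.75 for this gene with an adjusted p of 0.842. Among all accessions tested in cortex, 1.26% had diet groups that did not overlap, and Artn was the sole member of the 6 tested to do so. Under the standard diet accumbens lay below cortex in every library, by -1.24 on the log2 scale (SE 0.26, edgeR adjusted p = 0.00182). After the low-iron diet Artn was under the filter of the region test, and without the filter the log2 difference was -0.33 (edgeR adjusted p = 0.461). The interaction test of whether the diet difference depends on region gave 0.90 (edgeR unadjusted p = 0.0536, adjusted p = 0.818) and did not pass.

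**Figure D1:**
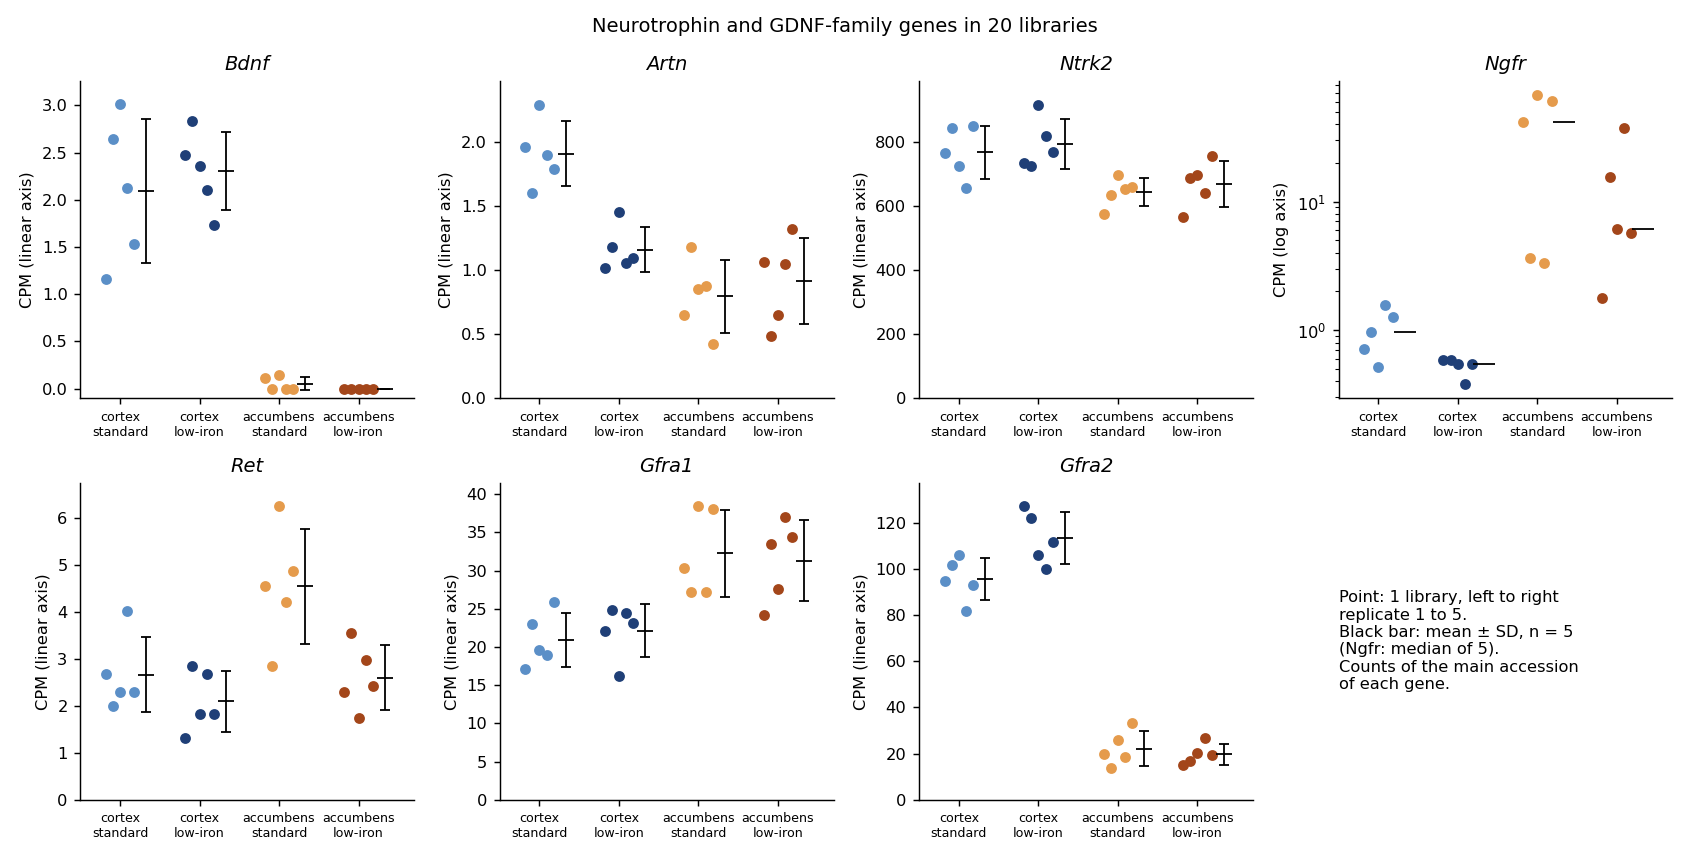
Level of 7 members in each of 20 libraries, in CPM, by region and diet; points are libraries and black bars the mean ± SD (n = 5), except for Ngfr, which is on a log axis with the median of each group. Bdnf and Gfra2 lie higher in every cortex library than in any accumbens library, Ngfr lies higher in every accumbens library than in any cortex library, and the Ngfr values within accumbens span 1.77 to 66.9 CPM.

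Ntrk2, on chromosome 17, encodes TrkB, the receptor for BDNF, in a full-length form with a kinase domain and in truncated forms that lack it. Its main accession, NM_001163168, was counted at similar levels everywhere. Cortex libraries had 768, 847, 726, 656 and 852 CPM after the standard diet and 734, 728, 919, 821 and 770 CPM after the low-iron diet. Accumbens libraries had 576, 636, 697, 654 and 660 CPM after the standard diet and 566, 688, 699, 642 and 757 CPM after the low-iron diet. Accumbens was slightly lower in both diets, with overlapping ranges. The log2 difference between accumbens and cortex was -0.26 under the standard diet (SE 0.08, edgeR adjusted p = 0.0233) and -0.23 after the low-iron diet (SE 0.08, edgeR adjusted p = 0.0174).

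The call of this small Ntrk2 difference was lost without some libraries, while the difference itself ran from -0.22 to -0.17 in those fits. Under the standard diet the edgeR adjusted p was 0.0636 without cortex replicate 2, 0.0612 without cortex replicate 5 and 0.0645 without accumbens replicate 1. After the low-iron diet it was 0.0530 without cortex replicate 3. Diet made a log2 difference of 0.06 in accumbens (95% interval -0.10 to 0.22, edgeR adjusted p = 0.975) and of 0.03 in cortex (95% interval -0.16 to 0.22, edgeR adjusted p = 0.931). The upper bound of the interval was 1.16-fold in both regions.

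The second Ntrk2 accession, NM_012731, differed more between the regions. It was at 141, 168, 145, 110 and 181 CPM in standard-diet cortex and 181, 182, 157, 190 and 163 CPM in low-iron cortex. In accumbens it was at 93.6, 97.6, 96.9, 90.4 and 93.8 CPM after the standard diet and 105, 93.2, 85.2, 95.2 and 88.6 CPM after the low-iron diet. Every accumbens library lay below every cortex library, with a log2 difference of -0.66 under the standard diet (edgeR adjusted p = 0.000413) and -0.88 after the low-iron diet (edgeR adjusted p = 1.71e-09). The files do not say which receptor form each accession encodes.

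As a share of the reads on the pair of Ntrk2 accessions, the second accession took 16.1 ± 1.22% in standard-diet cortex, 18.1 ± 2.23% in low-iron cortex, 12.8 ± 0.801% in standard-diet accumbens and 12.4 ± 2.09% in low-iron accumbens (SD, n = 5). Reads common to both accessions are assigned to neither. The share thus describes reads particular to each accession and is not the fraction of Ntrk2 transcripts of either form. The accumbens share minus the cortex share was -3.31 percentage points under the standard diet (95% interval -4.81 to -1.83, exact permutation p = 0.00794, adjusted over 4 comparisons 0.0317). It was -5.73 points after the low-iron diet (95% interval -8.71 to -2.37, exact permutation p = 0.0159, adjusted 0.0317). These tests were two-sided, the smallest p that 5 against 5 libraries allow is 0.00794, and the share was chosen for testing after the values of both accessions were seen. Between diets the share differed by 1.98 points in cortex (95% interval -0.94 to 4.42, exact permutation p = 0.119, adjusted 0.159) and by -0.44 points in accumbens (95% interval -2.42 to 2.001, exact permutation p = 0.690, adjusted 0.690). Without low-iron cortex replicate 3, the cortex value was 2.86 points (exact permutation p = 0.0317, not adjusted).

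**Figure D2:**
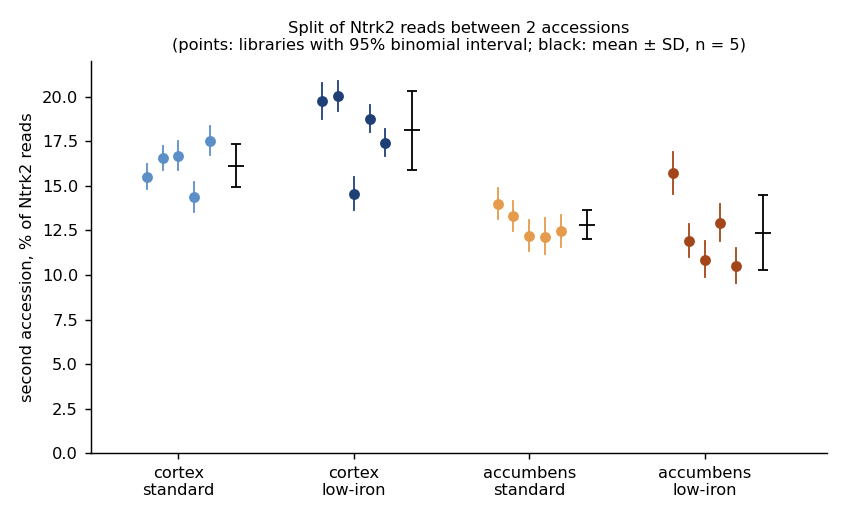
Share of reads on the pair of Ntrk2 accessions that fell on the second accession, in percent, for each library by region and diet. Reads common to both accessions are counted on neither. Thin lines are 95% binomial intervals and black bars the mean ± SD (n = 5). The accumbens libraries lie mostly between 10 and 14%, and the cortex libraries between 14 and 20%, with low-iron cortex replicate 3 at 14.6% and low-iron accumbens replicate 1 at 15.7%.

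Ngfr, on chromosome 10, encodes p75, a receptor shared by all neurotrophins, and it marks the cholinergic neurons of the basal forebrain. It was near its counting floor in cortex and varied widely in accumbens. Cortex libraries had 0.71, 0.96, 0.52, 1.56 and 1.27 CPM after the standard diet and 0.58, 0.59, 0.55, 0.38 and 0.55 CPM after the low-iron diet. Accumbens libraries had 41.3, 3.66, 66.9, 3.33 and 60.3 CPM after the standard diet and 1.77, 15.5, 6.07, 37.5 and 5.70 CPM after the low-iron diet. Each accumbens library was above every cortex library, and within either accumbens group the highest library was far above the lowest.

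Accumbens exceeded cortex by 5.14 on the log2 scale under the standard diet (SE 1.00, 35.3-fold, edgeR adjusted p = 0.00222) and by 4.67 after the low-iron diet (SE 1.00, 25.5-fold, edgeR adjusted p = 0.00323). Without low-iron accumbens replicate 4 the second of these was 3.80 (edgeR adjusted p = 0.000429). Cortex rests on 3 to 14 reads per library, and the 95% intervals of these folds reach from 7.39 to 169 and from 5.27 to 123. Between diets in accumbens the log2 difference was -1.36 with an SE of 0.98 (95% interval -3.61 to 0.89, edgeR adjusted p = 0.972). The means were 35.1 ± 30.3 and 13.3 ± 14.4 CPM (SD, n = 5), and the groups overlapped. The difference ran from -2.23 without low-iron replicate 4 to -1.01 without standard replicate 3. In cortex Ngfr was under the filter of the diet test. Without the filter it was -0.92 (edgeR unadjusted p = 0.0230, adjusted p = 0.732).

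Cholinergic markers moved with Ngfr from library to library in accumbens. The summed level of 10 such markers was 428, 269, 586, 218 and 525 CPM in standard-diet replicates 1 to 5 and 258, 347, 264, 413 and 333 CPM in low-iron replicates 1 to 5. In cortex the sum was 10.7 to 17.7 CPM, with Isl1 at 0 in all 10 libraries and Lhx8 at 0 in all 5 standard-diet libraries. The same 4 accumbens libraries held the 4 highest values of Ngfr, of the marker sum, of Chat, which makes acetylcholine, and of Slc18a3, which loads it into vesicles. They were standard replicates 1, 3 and 5 and low-iron replicate 4. The match was not complete for all markers of the list: Slc5a7 and Lhx8 each had 3 of these libraries among their own 4 highest. Chat was at 50.5, 29.5, 70.9, 25.0 and 61.2 CPM after the standard diet and 23.5, 38.6, 28.6, 53.4 and 32.7 CPM after the low-iron diet. Between diets in accumbens, 8 of the 10 markers were below 0, with a median log2 difference of -0.32 against a median of 0.00 over all accessions, and none passed the test. Other lists leaned there too, with no gene passing. All 10 tested striatal projection neuron markers (median 0.13) and 8 of 10 microglial markers (0.05) were above 0. All 10 oligodendrocyte markers (-0.06) and 10 of 11 endothelial and mural markers (-0.08) were below 0. The part of cholinergic RNA or of other cell types in the Ngfr values was not tested.

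Ret, on chromosome 4, encodes the receptor tyrosine kinase through which all GDNF-family ligands signal. It was highest in standard-diet accumbens, at 4.54, 2.83, 6.24, 4.20 and 4.87 CPM, while low-iron accumbens had 2.30, 3.56, 1.73, 2.96 and 2.41 CPM. The diet groups overlapped through standard replicate 2, which was below low-iron replicates 2 and 4. Cortex had 2.67, 2.002, 2.29, 4.02 and 2.29 CPM after the standard diet and 1.31, 2.84, 1.82, 2.68 and 1.82 CPM after the low-iron diet. In cortex the groups overlapped in part. The low-iron libraries at 1.31, 1.82 and 1.82 CPM lay below every standard-diet library, and the standard-diet library at 4.02 CPM lay above every low-iron one. These levels rest on 24 to 44 reads per library in standard-diet accumbens, 8 to 22 in low-iron accumbens and 9 to 36 in cortex.

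In accumbens the Ret log2 difference between diets was -0.77 with an SE of 0.24, which is 0.587-fold (95% interval 0.411 to 0.838). The edgeR p was 0.00603 before adjustment and 0.972 after adjustment over 11202 accessions, so it did not pass. It ran from -0.92 to -0.63 as each library was left out, and was -0.80 with read depth as a covariate (edgeR unadjusted p = 0.0439). In cortex it was -0.32 (SE 0.26, edgeR adjusted p = 0.716), and the test of the difference between regions gave -0.48 (SE 0.36, edgeR adjusted p = 0.821). The second Ret accession had 0 to 16 reads per library, and with both accessions summed the accumbens difference was -0.76 (edgeR adjusted p = 0.973). Of the 4 accumbens libraries with the highest cholinergic marker sum, 3 were also among the 4 with the highest Ret. The summed level of 7 measured dopamine neuron markers was 30.9 to 43.1 CPM in standard-diet and 29.3 to 37.5 CPM in low-iron accumbens. The part of these or other cell types in the Ret values was not tested.

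Between regions under the standard diet, Ret was higher in accumbens by 0.77 on the log2 scale (SE 0.24, edgeR adjusted p = 0.02001). This call was lost without cortex replicate 2 (0.68, adjusted p = 0.0533) or accumbens replicate 3 (0.63, adjusted p = 0.0565). After the low-iron diet the difference was 0.30 (95% interval -0.24 to 0.84, edgeR adjusted p = 0.324).

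Gfra1 encodes the GDNF co-receptor GFRα1. Accumbens had 30.4, 27.2, 38.4, 27.1 and 38.1 CPM after the standard diet and 24.2, 33.5, 27.5, 37.0 and 34.4 CPM after the low-iron diet. Cortex had 17.2, 23.0, 19.6, 19.0 and 25.9 CPM after the standard diet and 22.1, 24.9, 16.2, 24.4 and 23.2 CPM after the low-iron diet. Accumbens was higher in every library under the standard diet, and after the low-iron diet only low-iron accumbens replicate 1 fell within the cortex range. The log2 difference was 0.63 (SE 0.14, edgeR adjusted p = 0.00249) under the standard diet and 0.50 (SE 0.12, edgeR adjusted p = 0.00216) after the low-iron diet. Diet made a difference of -0.04 in accumbens (95% interval -0.33 to 0.25) and 0.08 in cortex (95% interval -0.20 to 0.36), with edgeR adjusted p = 0.989 and 0.867. Of the 4 accumbens libraries with the highest cholinergic marker sum, 3 were among the 4 with the highest Gfra1. Over the 10 accumbens libraries Gfra1 correlated with cholinergic markers at r = 0.879 and with striatal projection neuron markers at r = -0.814. The part of these or other cell types in the Gfra1 values was not tested.

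Gfra2, on chromosome 15, encodes GFRα2, the co-receptor for neurturin, and was the opposite of Gfra1 between the regions. Cortex had 94.9, 102, 106, 82.0 and 93.2 CPM after the standard diet and 127, 122, 106, 100 and 112 CPM after the low-iron diet. Accumbens had 19.8, 13.6, 26.0, 18.4 and 33.3 CPM after the standard diet and 15.02, 17.0, 20.2, 26.9 and 19.3 CPM after the low-iron diet. Every accumbens library lay below the whole cortex range. The log2 difference was -2.11 under the standard diet (SE 0.19, edgeR adjusted p = 6.26e-06) and -2.51 after the low-iron diet (SE 0.12, edgeR adjusted p = 2.90e-11), so cortex was 4.32-fold and 5.71-fold higher.

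In cortex Gfra2 was 1.17-fold as high after the low-iron diet as after the standard diet (log2 difference 0.23, SE 0.08, edgeR unadjusted p = 0.0104, adjusted p = 0.683), and the groups overlapped. With all 20 libraries in a single fit the cortex difference was 0.245 (edgeR unadjusted p = 0.120). In accumbens the log2 difference was -0.17 (95% interval -0.69 to 0.36, edgeR adjusted p = 0.975). The test of the difference between regions gave -0.42 (SE 0.25, edgeR unadjusted p = 0.107, adjusted p = 0.818).

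Marker lists of other cell types also leaned with diet in cortex, although none of their genes passed the edgeR test and the ranges of their sums overlapped. All 8 tested meningeal and fibroblast markers were below 0, with a median log2 difference of -1.38 and summed levels of 125 to 1253 CPM after the standard diet and 71.0 to 292 CPM after the low-iron diet. Col1a2 and Ogn of that list had 0 reads in all 20 libraries. All 11 tested cortical glutamatergic markers were above 0, with a median of 0.19 and summed levels of 2025 to 3237 and 3082 to 3818 CPM. Endothelial and mural markers were below 0 in 10 of 11 (median -0.31, sums of 536 to 827 and 484 to 603 CPM), septal markers in 6 of 7 (median -0.34, 280 to 587 and 262 to 302 CPM) and microglial markers in 9 of 10 (median -0.09, 504 to 550 and 479 to 568 CPM). The median over all accessions was 0.00. Without standard-diet cortex replicate 4, which had the most meningeal and the least glutamatergic RNA, the Artn difference was -0.74 (edgeR unadjusted p = 0.00648) and the Gfra2 difference 0.18 (edgeR unadjusted p = 0.0138). Leaving out 1 library does not separate tissue composition from diet, and the part of composition in these values was not tested.

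**Figure D3:**
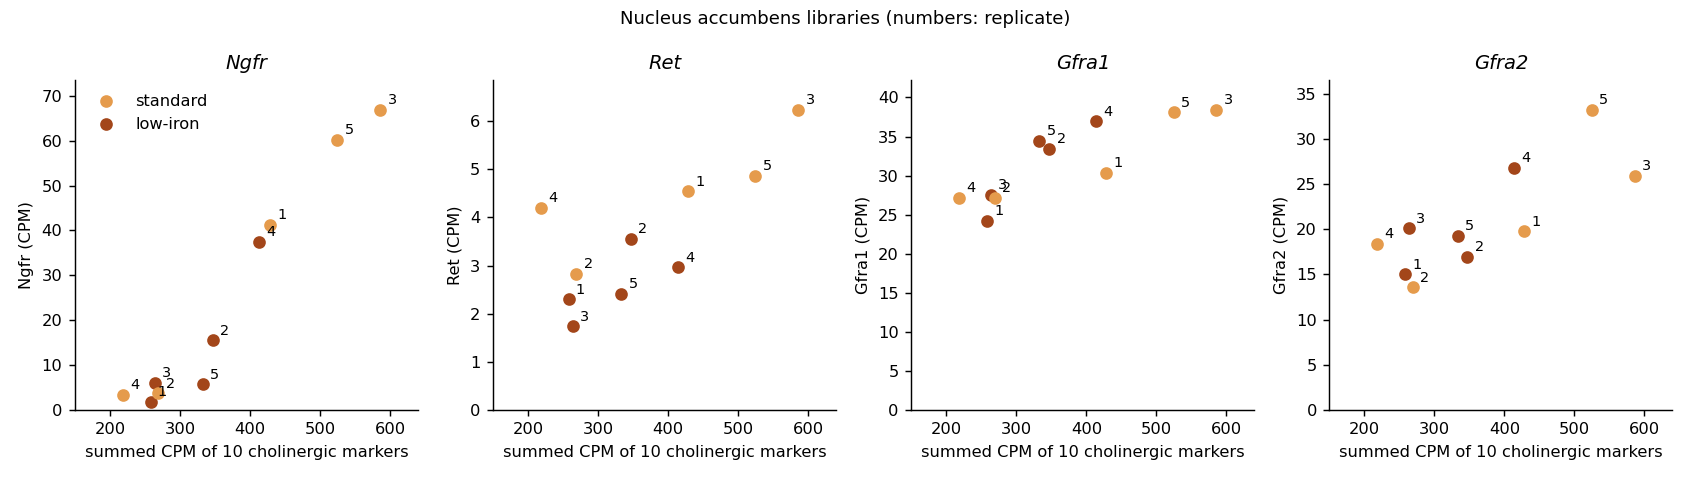
Level of Ngfr, Ret, Gfra1 and Gfra2 (CPM) against the summed CPM of 10 cholinergic markers in the 10 accumbens libraries, coloured by diet and numbered by replicate. The 4 libraries with marker sums of 413 CPM or more hold the 4 highest Ngfr values, 37.5 to 66.9 CPM, and they come from both diets. Gfra2 correlated with cholinergic markers at r = 0.755 and with striatal projection neuron markers, not drawn here, at r = -0.921.

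Members passed the test between regions and none passed between diets. Under the standard diet 6 of the 9 genes passed the read filter and all 6 passed the edgeR test, 3 higher in accumbens (Ngfr, Ret, Gfra1) and 3 lower (Ntrk2, Gfra2, Artn). The background was 47.0% of 11612 accessions, with 23.0% higher and 24.0% lower in accumbens. After the low-iron diet 5 passed the filter and 4 passed the test, 2 higher (Ngfr, Gfra1) and 2 lower (Ntrk2, Gfra2), where 59.1% of 11220 accessions passed, 30.1% higher and 29.0% lower. Ngfr entered through accumbens and Artn through cortex, so these counts do not speak for all 9 genes. The comparisons share the libraries of each diet with the diet tests below.

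Between diets, 0 of 5 tested members passed in accumbens and 0 of 6 in cortex, where 0% of 11202 and 0% of 11662 accessions passed. At an unadjusted edgeR p under 0.05 there was 1 member in accumbens (Ret), beside 4.04% of all accessions, and 2 in cortex (Artn and Gfra2), beside 5.99%. With all 20 libraries in a single fit Gfra2 in cortex was not under 0.05 (edgeR unadjusted p = 0.120). No tested member had accumbens diet groups without overlap, where 0.946% of accessions did. DESeq2 gave no member an adjusted p under 0.05 in either diet comparison. In the interaction of diet and region 0 of 7 tested members passed, as did 0% of 11788 accessions. At an unadjusted p under 0.05 the interaction held 5.37% of accessions and no member. For Bdnf it was -2.24 with a 95% interval of -5.18 to 0.69, with 2 and 0 reads of the main accession in the accumbens groups. With accessions summed it was -1.76, and DESeq2 gave -0.78.

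**Figure D4:**
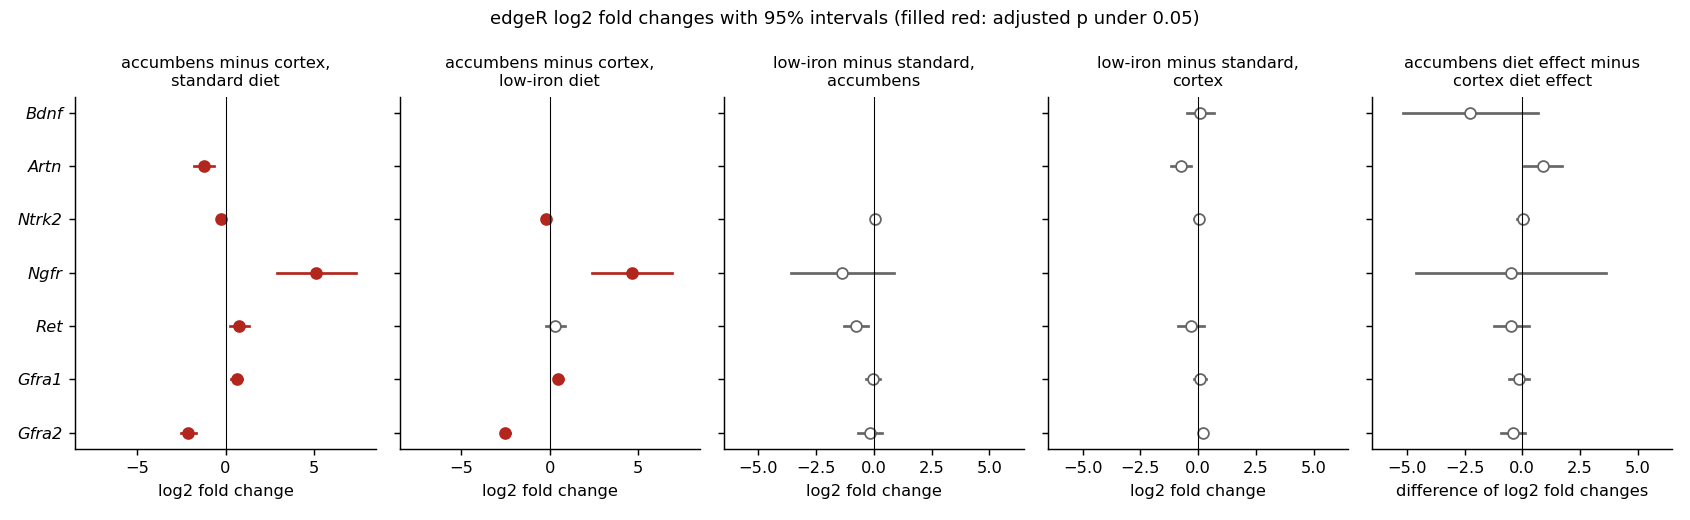
edgeR log2 fold changes of the members that passed the read filter, with 95% intervals, for 5 comparisons; filled red points passed an adjusted p of 0.05. Passing members appear in the region comparisons alone, and the widest intervals are those of Ngfr and of Bdnf in the interaction. The Artn interval in the interaction, 0.09 to 1.72, lies above 0 while its unadjusted p was 0.0536, since edgeR keeps a p from falling below that of counting error alone.

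The order of the 4 groups by mean level put both cortex groups above both accumbens groups for Bdnf, Ntrk2, Gfra2 and Artn, and both accumbens groups above both cortex groups for Ngfr and Gfra1. For Bdnf, Ntrk2 and Gfra1 the step between regions exceeded the larger SD of the neighbouring groups and the steps between diets did not. For Gfra2 the step between low-iron and standard-diet cortex, 113 and 95.5 CPM, also exceeded it. For Artn the step from standard-diet to low-iron cortex, 1.91 to 1.16 CPM, exceeded it, while that from low-iron cortex to low-iron accumbens, 0.911 CPM, did not. For Ret standard-diet accumbens stood above the other groups by 1.88 CPM, and those 3 lay between 2.09 and 2.66 CPM. For Ngfr the step between the diets in accumbens, 35.1 and 13.3 CPM, was smaller than the larger SD, and so was the step from low-iron accumbens to standard-diet cortex, 13.3 to 1.01 CPM. The step from standard-diet to low-iron cortex, 1.01 to 0.529 CPM, did exceed the larger SD of 0.421 CPM.

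The genes most like each member were found by the correlation of log2 CPM deviations from the group means over 20 libraries, among 11780 other accessions; it is given as a description, since the libraries share depth and tissue composition. Ntrk2 was most like Gpm6b (r = 0.862) and Mlc1 (r = 0.848), an astrocyte membrane protein gene. Ngfr was most like Npr3 (r = 0.878) and Stab2 (r = 0.872). Within accumbens these were 0.967 and 0.934, and within cortex, where Ngfr was near its counting floor, 0.292 and 0.446. Gfra1 was most like Slc5a7 (r = 0.841), the choline transporter gene of cholinergic neurons, and Clcn5 (r = 0.831). Gfra2 was most like Npas1 (r = 0.903) and Optn (r = 0.901). Ret was most like Tmem39a (r = 0.837) and Cfl2 (r = 0.812), Artn most like Rsu1 (r = 0.778), and Bdnf most like Dcaf8 (r = 0.783) and Wtap (r = 0.773). Bdnf had 0 or 1 read in each accumbens library, so only its cortex deviations carry its level. Over the 10 cortex libraries alone the Bdnf values were 0.856 and 0.787. For Artn and Rsu1 the value was 0.881 within accumbens, from 3 to 10 Artn reads per library, and 0.336 within cortex. For Ntrk2, Ret, Gfra1 and Gfra2 the values were 0.717 or more within each region.

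The rest of the pathway was described with 133 genes in 7 lists, from other ligands to target genes. Between regions under the standard diet, 72 of 115 tested genes passed, 19 higher and 53 lower in accumbens, which is 62.6% beside the 47.0% of all accessions. After the low-iron diet 76 of 114 passed (66.7%), 19 higher and 57 lower, beside 59.1%. Of 18 activity and neurotrophin target genes tested, 16 were lower and 0 higher in accumbens under either diet, with median log2 differences of -1.30 and -1.25 against medians of 0.01 and 0.03 over all accessions. Of 15 feedback inhibitors 10 were lower and 0 higher under either diet, with medians of -0.53 and -0.48. Of 29 receptor adaptors 8 were higher and 5 lower under the standard diet and 8 and 6 after the low-iron diet, with medians of 0.05 and 0.06. Over all accessions 24.0% and 29.0% were lower and 23.0% and 30.1% higher, so the adaptors passed about as often as all accessions or less. Differences between lists were not tested.

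Among the ligands, Gdnf, which acts through GFRα1 and RET, was at 1.71 ± 0.481 CPM in standard-diet accumbens and 0.119 ± 0.116 CPM in standard-diet cortex (SD, n = 5, edgeR adjusted p = 3.29e-05). Gdnf entered this test through its accumbens level alone, and it was under the read filter of the region test after the low-iron diet. Pspn, which encodes persephin, was higher in accumbens by 1.02 on the log2 scale after the low-iron diet. Under the standard diet its difference was 0.48 and did not pass (edgeR adjusted p = 0.0921). Among the receptors, Rtn4r, which encodes the Nogo receptor that pairs with p75, was at 136 ± 24.3 and 158 ± 19.4 CPM in cortex and 4.39 ± 4.02 and 1.63 ± 0.651 CPM in accumbens, after the standard and low-iron diet in that order.

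Of the genes that process ligands, Mmp9, a protease that can cleave the BDNF precursor, was lower in accumbens by -2.56 and -2.63. The convertase gene Pcsk5 was lower by -1.82 and -1.89, after the standard and low-iron diet in that order. Of the adaptors and kinases, Dok5 was lower in accumbens by -1.67 and -1.70 and Camk4 by -0.67 and -0.94, while Gab1 was higher by 0.95 and 1.11 and Rps6ka5, which encodes the kinase MSK1, by 1.55 and 1.74. Of the feedback inhibitors, the phosphatase genes Dusp6 and Dusp5 were lower by -1.94 and -1.44 under the standard diet and by -1.93 and -1.42 after the low-iron diet. Of the target genes, Cort, which encodes cortistatin, was lower by -3.78 and -3.86. The activity-induced transcription factor gene Npas4 was lower by -3.07 and -2.805, and the pentraxin gene Nptx2 by -2.35 and -2.94. All of these passed the edgeR test, with adjusted p from 1.12e-15 to 0.0303. Mmp9, at 1.15 and 1.13 CPM in accumbens, and Cort, at 0.899 and 0.871 CPM there, entered the tests through their cortex levels.

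**Figure D5:**
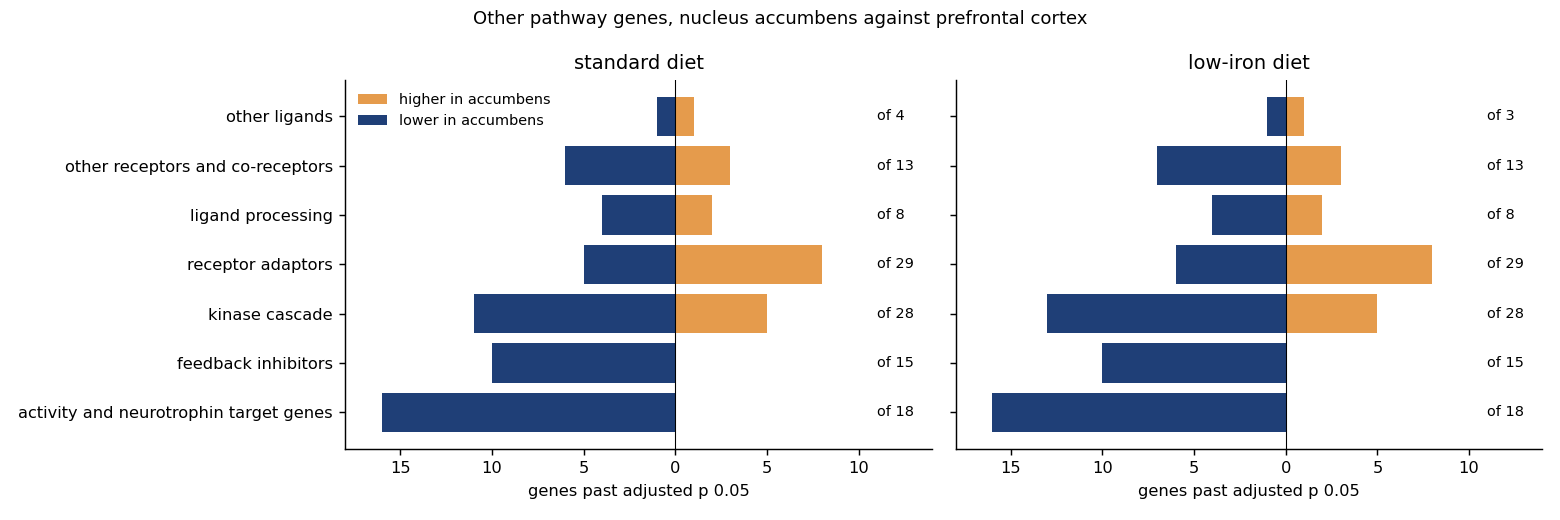
Number of genes of 7 pathway lists that passed the edgeR test between accumbens and cortex, higher to the right in orange and lower to the left in blue, under each diet; the number tested stands beside each bar. Target genes and feedback inhibitors have no gene that was higher in accumbens, and adaptors have 8.

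Between diets, 0 of 111 tested pathway genes passed in accumbens and 0 of 115 in cortex, and 4 (3.60%) and 7 (6.09%) had an unadjusted edgeR p under 0.05, near the 4.04% and 5.99% of all accessions. In accumbens the lowest unadjusted p of each list belonged to Shc3 (log2 difference -0.29), Rps6ka5 (0.22), Nr4a2 (-0.42), Rtn4r (-1.28), Spry3 (-0.34), Furin (0.10) and Pspn (0.22). In cortex it belonged to Pik3r1 (0.22), Sh2b3 (-0.24), Spred1 (0.18), Sort1 (0.20), Plat (-0.39), Homer1 (0.22) and Pspn (-0.32). Each had an edgeR adjusted p of 0.683 or more. In the interaction 0 of 117 passed and 8 (6.84%) had an unadjusted p under 0.05, beside 5.37% of all accessions. The lowest unadjusted p of each list there belonged to Crk (-0.30), Dusp7 (-0.28), Rtn4r (-1.46), Nptx2 (-0.60), Pspn (0.53), Pcsk7 (0.15) and Pik3r1 (-0.21), with adjusted p = 0.818.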

How the data were processed

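Poly(A) RNA of 20 rat brain libraries was sequenced as 75 bp single reads from RNA with an integrity number above 8.3, per the labels' protocols. The authors deposited read counts per RefSeq accession for each library, and tables with counts, a mean normalized signal, log2 fold changes, a test score and p-values of their diet comparisons. Counts in the deposited tables equalled those of the library files for all 17026 accessions they hold. Tools listed in the submitters' processing notes are STAR, HTSeq, DESeq, DESeq2 and Trimmomatic 0.36.3, with the rat build rn6 and no account of the step each served. The unstranded count column was used; 49.6 to 50.0% of stranded reads were on the first strand, so antisense reads cannot be told apart. Rows naming no gene held 50.8 to 60.7% of reads, of which ambiguous reads were 3.61 to 4.23% of the total, and entered neither library sizes nor tests. Symbols came from a RefSeq gene table of GRCr8 for 17353 accessions and from the deposited tables for 859 more, and 76 had none; chromosomes of rn6 are those of the deposited tables.

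Tests used edgeR 4.0.16 (quasi-likelihood) in R 4.3.3, with TMM scaling, filterByExpr at a minimum count of 10 and Benjamini-Hochberg adjustment over all accessions tested, on the 10 libraries of each comparison or all 20 for the interaction. The SE was taken as the absolute log2 fold change over the root of the F statistic. At low counts the p of edgeR is bounded by counting error and can be larger than the interval from this SE implies. The share of Ntrk2 reads was tested with an exact permutation test over libraries. Code for the tests was tested on simulated data. Alternatives were DESeq2 1.42.0, RLE scaling, no filter, accessions summed per symbol, a replicate block, all libraries in a single fit, a depth covariate and leaving out each library. No pair of libraries within a group looked like a copy, with chi-square over degrees of freedom of 1.97 or more.

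Members and lists were chosen with earlier results of these data known. Named were all 9 members, the 2 largest log2 differences past the threshold in each pathway list (or the lowest unadjusted p of each list where none passed), and the 2 genes most like each member. Some genes that this rule names are not reported here.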

Additional observations from a re-analysis of the deposited data

Results flagged for a closer look

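Ngfr in low-iron cortex had 1 library far from the rest of its group: replicate 4 was at 0.383 CPM, where the other 4 libraries were at 0.55 to 0.59 CPM. The value rests on 4 reads. Replicates 1 to 5 of this group had 4, 6, 3, 4 and 6 reads, so replicate 4 did not have the fewest. Chance marks about 1 in 20 groups in this way.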

How the results depend on the processing

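The number of accessions past an adjusted p of 0.05 stayed within 1.5 times its main value under every alternative run except in the accumbens diet comparison, where DESeq2 called 1 accession, not a member, against 0 by edgeR. Leaving out each library gave 4906 to 6293 calls between regions under the standard diet and 6245 to 6534 after the low-iron diet, against 5462 and 6630. Of 578 alternative values for 33 member results, 554 kept direction and call, 6 lost the call and 1 gained it, all by leaving out a library, and 17 changed sign, all of them differences that had not passed. With read depth as a covariate the Ntrk2 diet difference in accumbens was -0.11, and with accessions summed the Ntrk2 interaction was -0.027. As libraries were left out, the accumbens diet difference ran from -0.11 to 0.043 for Gfra1 and from -0.32 to 0.020 for Gfra2, the cortex diet difference from -0.057 to 0.27 for Bdnf and from -0.027 to 0.069 for Ntrk2, the Ntrk2 interaction from -0.035 to 0.069, and the accumbens diet difference in the second Ntrk2 share from -1.27 to 0.036 points. The cause of these sign changes was not tested. The labels do not say whether a replicate number marks a shared animal, and in no comparison did every same-numbered pair correlate above 0.1: they had correlations from -0.312 to 0.159 across diets and from -0.0441 to 0.136 across regions, and 0 of 5 to 3 of 5 correlated best with their own number. With the replicate block the calls were 0, 0, 5188, 6817 and 0 for accumbens diet, cortex diet, region under the standard diet, region after the low-iron diet and interaction, and all 29 member results kept their call. Bdnf, Artn, Ret, Ntf3, Ntrk3 and cortical Ngfr all had under 60 reads per library, which limits how finely their levels can be resolved. The parts of read depth and of unassigned shared reads in these counts were not tested.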
